A study of Mus musculus with 10 samples.

Results

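The genes described here encode the chaperones, folding enzymes and regulators of 2 stress pathways, the cytosolic heat shock response and the unfolded protein response of the endoplasmic reticulum (ER). A fixed list of 37 genes was taken, with the Hsp70 family left out, and 35 of them were measured among 19939 genes: 13 of 15 cytosolic heat shock genes and 22 of 22 ER genes. *Hsp90ab1*, a constitutive cytosolic Hsp90, and *Hsf1*, the master transcription factor of the heat shock response, had no probe set annotated to them alone and were not analysed here. The list is of named genes; where a gene had several probe sets, the one with the highest mean was taken.

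RNA came from the whole hippocampus of male mice aged 16 weeks, 1 array per mouse, with 5 Dp3Yah mice and 5 control littermates. Dp3Yah mice carry a segmental duplication of mouse chromosome 16 between *Hspa13* and *App*, which gives 3 copies of the interval against 2 in controls. The labels place all mice on C57BL/6N, whereas the study's methods describe backcrossing to C57BL/6J, and they call each mouse a biological replicate. Bulk hippocampus mixes neurons, glia and vessels, so fewer cells of a type and less RNA per cell cannot be told apart.

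When cytosolic proteins misfold, HSF1 is released from chaperones, binds heat shock elements and induces small heat shock proteins, Hsp70, Hsp90 and their cochaperones. In the ER, the sensors IRE1 (*Ern1*), PERK (*Eif2ak3*) and ATF6 respond to unfolded proteins. IRE1 splices *Xbp1* mRNA, PERK slows translation and favours *Atf4*, and cleaved ATF6 enters the nucleus, where the resulting factors induce lumenal chaperones, disulfide isomerases and degradation factors. Fever or cooling shifts the heat shock genes, and secretory cells hold high levels of the ER genes.

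The values are log2 intensities, and all differences are Dp3Yah minus control on that log2 scale. The array medians lay between 5.64 and 5.71, and no pair of arrays held identical values. Markers of the labelled tissue were present: list means per mouse lay between 8.60 and 8.97 for 12 markers of CA pyramidal neurons and between 7.66 and 8.06 for 12 markers of dentate granule cells. The markers of this gene group were all measured, with group means of 7.16 and 7.64 for *Hspb1*, 7.76 and 8.17 for *Sdf2l1* and 8.08 and 8.28 for *Creld2* (Dp3Yah and control). No measured member lies in the duplicated interval, and *Sdf2l1* and *Dnajb11* are the members on chromosome 16, both proximal of it.

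Most chaperone and stress genes had slightly lower means in Dp3Yah hippocampus, and no single gene passed the test. The change was negative in 12 of 13 cytosolic heat shock genes, with a median of -0.10, and in 18 of 22 ER genes, with a median of -0.09. Over all genes the change was negative in 53.2%, with a median of -0.00. None of the 35 genes passed limma's adjusted p threshold of 0.05, which 0.015% of all genes did. At an unadjusted limma p under 0.05, 5 of the 35 genes were lower in Dp3Yah (*Hspb1*, *Bag3*, *Sdf2l1*, *Creld2* and *Atf6*) against 2.59% of all genes, and 0 were higher against 2.49%. The rank test FCROS, which the study used, put 7 of them below its lower threshold (*Hspb1*, *Cryab*, *Dnajb1*, *Bag3*, *Sdf2l1*, *Creld2* and *Atf4*) against 2.05% of all genes, and 0 above its upper one against 2.54%. In none of the 35 did every Dp3Yah mouse lie below every control, an arrangement found in 0.391% of all genes, and in none did every Dp3Yah mouse lie above every control (0.522%).

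Single mice, above all 1 control, carried much of this difference. Control replicate 1 had the highest value of all 10 mice in 30 of the 35 genes (12 of 13 cytosolic and 18 of 22 ER genes), against 12.9% of all genes. Its mean over the 35 genes was 9.18, and the other controls lay between 8.88 and 8.95. The Dp3Yah mice lay between 8.80 and 8.93, so that the other 4 controls overlapped the Dp3Yah range. At the low end, Dp3Yah replicate 2 was the lowest of all mice in 13 genes and Dp3Yah replicate 5 in 11. Replicate 2 was lowest in 23.8% of all genes as well, and replicate 5 in 11.5%.

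Without control replicate 1 the change was negative in 23 of the 35 genes, against 51.6% of all genes, and the medians were -0.05 for cytosolic and -0.03 for ER genes. *Hspb1*, *Bag3* and *Sdf2l1* then had an unadjusted limma p under 0.05 in the lower direction, against 2.32% of all genes. *Dnajb9* had one in the higher direction, against 3.04%. Without Dp3Yah replicate 5 the medians were -0.06 for both cytosolic and ER genes, and 0 ER genes had an unadjusted limma p under 0.05 in the lower direction. The share over all genes was not computed for that fit. The median SD of the 35 genes between controls was 0.148 with control replicate 1 and 0.093 without that mouse. Between Dp3Yah mice it was 0.116. Over all genes the corresponding median SDs were 0.079, 0.075 and 0.087, so these genes varied between mice more than a typical gene did.

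**Figure D1:**
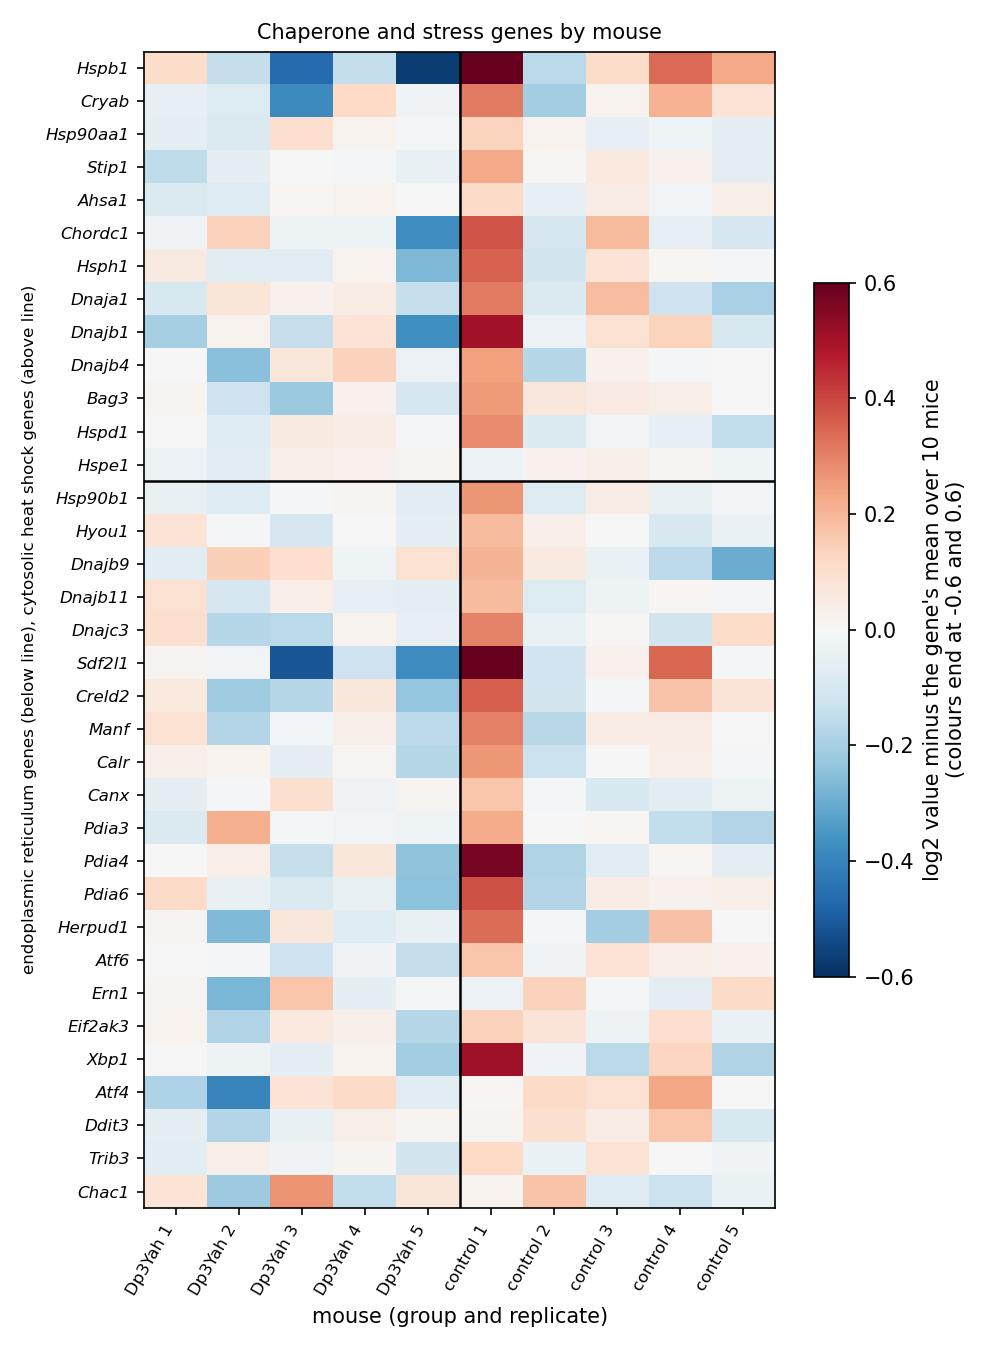
Log2 value of each measured gene minus that gene's mean over all 10 mice, as a colour (red above, blue below, colours ending at 0.6 and -0.6), with genes in rows and mice in columns. The column of control replicate 1 is red in both blocks, and it holds the highest value in 30 of 35 genes.

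The promoters of both groups show which elements these genes carry. Stretches of *Hspb1*, *Hspe1*, *Creld2*, *Sdf2l1*, *Hsp90b1* and *Herpud1*, chosen for their change or their elements, are printed for reference. RefSeq promoters (GRCm38.p6, from 250 bases before to 50 bases after the start) were at hand for 30 of the 37 genes, 11 cytosolic and 19 ER. Each motif was searched on both strands, and a match is only a description of these letters. The heat shock element, bound by HSF1, was searched as GAANNTTC and TTCNNGAA, which overlap where more than a pair of units follow each other. Either form was present in 8 of 11 cytosolic genes and in 1 of 19 ER genes, *Eif2ak3*, and in 15.06% of all 32851 promoters. A form with 3 units, in which GAANNTTC is followed after any 2 bases by a further GAA, was present in *Chordc1*, *Hsph1*, *Hspd1* and *Hspe1*, and in 0.603% of all promoters. *Hspd1* and *Hspe1* lie head to head, and their windows overlap, so the same element was counted for both.

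The 2 elements of *Hspb1*, the gene with the lowest change, stand 117 to 110 and 97 to 90 bases before its start, and *Hspe1* is shown beside it because it holds consecutive units and did not differ. Capitals mark the heat shock elements. The *Hspb1* stretch is chr5:135887769-135887918 on the plus strand and the *Hspe1* stretch is chr1:55088038-55088107 on the plus strand, both from GRCm38.p6.
Hspb1: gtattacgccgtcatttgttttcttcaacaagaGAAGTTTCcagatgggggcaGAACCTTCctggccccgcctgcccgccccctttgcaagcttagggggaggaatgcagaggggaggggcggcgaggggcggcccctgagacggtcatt
Hspe1: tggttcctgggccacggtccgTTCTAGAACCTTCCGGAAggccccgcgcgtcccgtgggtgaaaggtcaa

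The ER stress response element, bound by ATF6 and XBP1 together with NF-Y, was searched as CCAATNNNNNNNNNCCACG, and its second form as ATTGG and CCACG with any 1 base between them. One or the other was present in 8 of 19 ER genes (*Hsp90b1*, *Dnajc3*, *Creld2*, *Calr*, *Canx*, *Pdia6*, *Dnajb11* and *Herpud1*), in 0 of 11 cytosolic genes and in 0.16% of all promoters. The XBP1 element TGACGTGG was present in none of the 30 genes and in 0.676% of all promoters. The ATF4 element TGATGNAA was present in *Herpud1*, *Trib3* and *Chac1*, and in 3.969% of all promoters. The stretches below are those of *Creld2* and *Sdf2l1*, the ER chaperone genes with the lowest changes, of *Hsp90b1*, which holds 2 elements, and of *Herpud1*, which holds an element of each kind. Capitals mark ER stress response elements in *Creld2* and *Hsp90b1*. In *Herpud1* they mark the ATF4 element and then the second form, and *Sdf2l1* has no match. The stretches are chr15:88819496-88819645 (plus strand) for *Creld2*, chr16:17132384-17132533 (minus strand) for *Sdf2l1*, chr10:86705525-86705664 (minus strand) for *Hsp90b1* and chr8:94386299-94386398 (plus strand) for *Herpud1*, in GRCm38.p6.
Creld2: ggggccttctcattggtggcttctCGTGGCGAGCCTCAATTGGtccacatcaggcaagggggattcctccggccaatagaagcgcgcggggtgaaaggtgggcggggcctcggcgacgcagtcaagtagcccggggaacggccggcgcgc
Sdf2l1: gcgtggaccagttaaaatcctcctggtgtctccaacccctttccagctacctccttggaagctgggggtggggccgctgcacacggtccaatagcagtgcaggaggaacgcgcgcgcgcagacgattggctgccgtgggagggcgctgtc
Hsp90b1: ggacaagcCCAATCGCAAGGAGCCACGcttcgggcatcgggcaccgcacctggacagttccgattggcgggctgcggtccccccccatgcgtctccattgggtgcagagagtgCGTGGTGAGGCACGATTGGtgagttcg
Herpud1: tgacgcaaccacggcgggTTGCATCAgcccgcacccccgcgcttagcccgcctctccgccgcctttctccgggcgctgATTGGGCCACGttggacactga

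Among the cytosolic genes, the small heat shock gene *Hspb1*, whose protein (Hsp27 in humans, Hsp25 in mice) holds unfolded proteins in a refoldable state and protects actin filaments, had the lowest change of all 19939 genes. Its log2 values in Dp3Yah replicates 1 to 5 were 7.51, 7.26, 6.94, 7.26 and 6.83, and in control replicates 1 to 5 they were 8.09, 7.24, 7.51, 7.74 and 7.63. The groups overlapped through control replicate 2, and Dp3Yah replicates 3 and 5 lay below every control. The change was -0.48 (SE 0.152, 95% interval -0.81 to -0.15, limma adjusted p = 0.922), which is 1.40-fold higher in control. A second probe set read similar values in each mouse, with a change of -0.46. It read the same RNA on the same arrays, so it is not an independent measurement of the mice. Whether the 2 probe sets read different sequences was not examined. Without control replicate 1 the change was -0.37, the sixth lowest of all genes.

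*Cryab*, the other small heat shock gene, which encodes alpha B-crystallin of glia and muscle, had a change of -0.16 (SE 0.102), with Dp3Yah replicate 3 lowest at 10.49. The Hsp90 group lay closer to 0. *Hsp90aa1*, the inducible cytosolic Hsp90, had a change of -0.01, with a 95% interval of -0.12 to 0.10, and 2 further probe sets gave -0.02 and -0.03. Its cochaperones *Stip1* (which links Hsp70 to Hsp90), *Ahsa1* (which activates its ATPase) and *Chordc1* had changes of -0.10, -0.05 and -0.13. In *Chordc1* most of the spread came from the extremes, control replicate 1 at 8.41 and Dp3Yah replicate 5 at 7.66.

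The partners of Hsp70 had changes of unequal size. *Bag3*, a nucleotide exchange factor that works with small heat shock proteins in selective autophagy, had values of 7.34, 7.20, 7.10, 7.35 and 7.22 in Dp3Yah and 7.58, 7.39, 7.37, 7.36 and 7.32 in control. Dp3Yah replicates 2, 3 and 5 lay below every control, and replicates 1 and 4 lay above the lowest control. The change was -0.16 (SE 0.061, limma adjusted p = 0.922), and it was -0.12 without control replicate 1. *Dnajb1*, the stress-inducible J protein Hsp40, had the larger change of -0.24 (SE 0.110), with control replicate 1 at 8.66 and the other controls between 8.06 and 8.29. Without that mouse its change was -0.14. *Hsph1*, an Hsp110 exchange factor, had a change of -0.13, and the J proteins *Dnaja1* and *Dnajb4* both had -0.03.

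The mitochondrial chaperonin, which is induced by heat but acts in the mitochondrial matrix, showed no detectable difference. *Hspd1* (Hsp60) had a change of 0.00 with a 95% interval of -0.15 to 0.16, and *Hspe1* (Hsp10) had -0.01 with an interval of -0.09 to 0.07. Without control replicate 1, the highest mouse in *Hspd1* at 9.61, the changes were 0.08 for *Hspd1* and -0.02 for *Hspe1*. *Hspe1* was the only cytosolic-list gene in which control replicate 1 was not the highest mouse: it read 10.42 there, and the other 9 mice lay between 10.39 and 10.49.

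**Figure D2:**
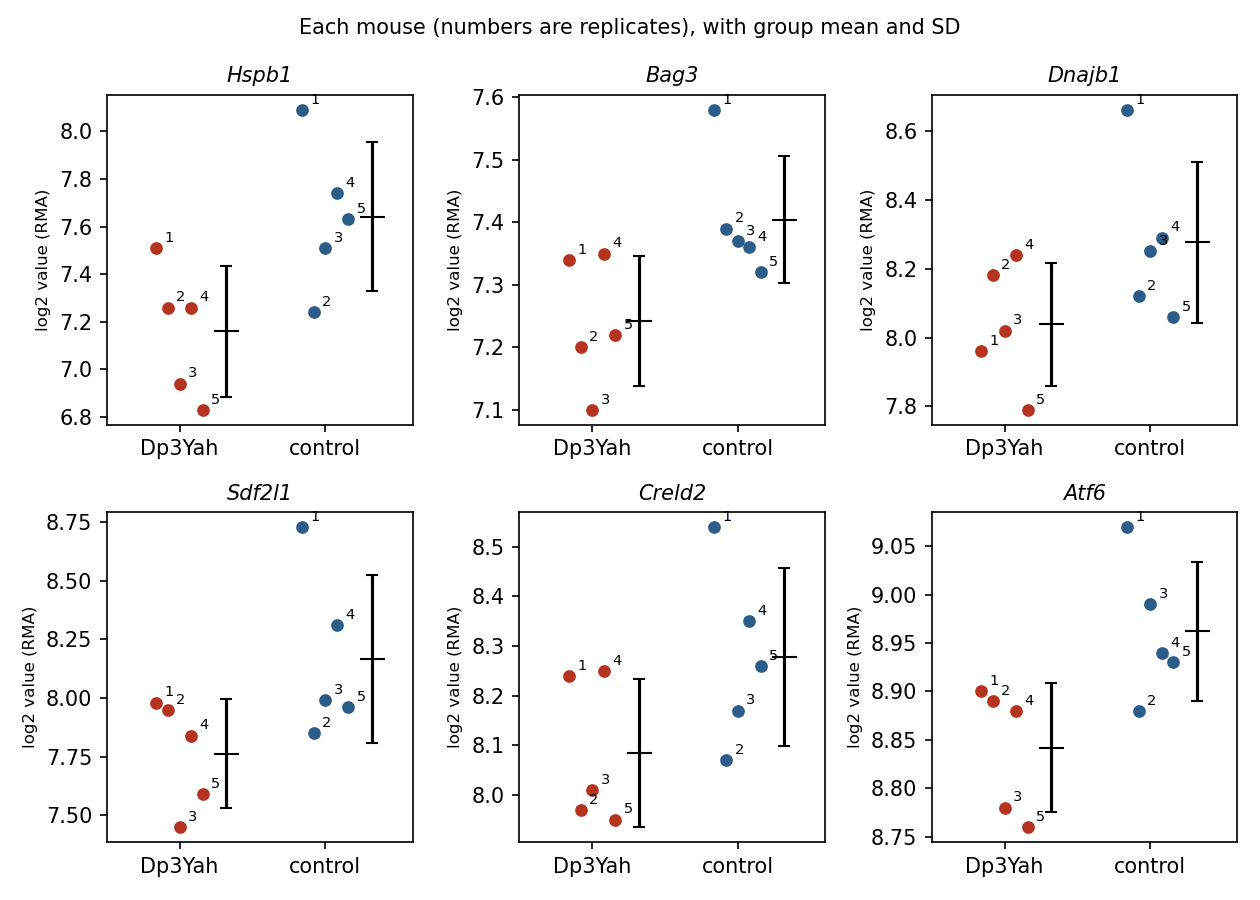
Log2 values of 6 genes, 1 point per mouse labelled with its replicate number, with the group mean (horizontal bar) and SD (error bar) beside the points; each panel has its own axis. Control replicate 1 is the highest mouse in every panel, and the groups overlap in every panel.

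Among the ER genes, the lumenal chaperones and their cofactors held the lowest changes. *Sdf2l1*, a cofactor of the ER J proteins that keeps substrates soluble, had values of 7.98, 7.95, 7.45, 7.84 and 7.59 in Dp3Yah and 8.73, 7.85, 7.99, 8.31 and 7.96 in control. Dp3Yah replicates 3, 4 and 5 lay below every control, and control replicate 1 lay 0.43 above the next control. The change was -0.41 (SE 0.156, 95% interval -0.74 to -0.07, limma adjusted p = 0.922), the fourth lowest of all genes, and 1.32-fold higher in control. Without control replicate 1 it was -0.26, which ranked 39 from the lowest. *Sdf2l1* lies at 17130138 to 17132383 of chromosome 16, away from the interval. That interval was taken here from *Hspa13* at 75755190 to the end of *Gabpa* at 84863783, short of *App*.

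*Creld2*, a secreted ER stress-induced protein with disulfide isomerase activity, had values of 8.24, 7.97, 8.01, 8.25 and 7.95 in Dp3Yah and 8.54, 8.07, 8.17, 8.35 and 8.26 in control. Dp3Yah replicates 2, 3 and 5 lay below every control, whereas replicates 1 and 4 lay among the controls. The change was -0.20 (SE 0.089, limma adjusted p = 0.922), and it was -0.13 without control replicate 1. The other genes of this role were closer to 0. *Dnajc3* (which also inhibits PERK) had -0.11, *Manf* (a secreted trophic factor) -0.09, *Hsp90b1* (the ER Hsp90, GRP94) -0.07, and *Hyou1* (the large ER chaperone GRP170) and *Dnajb11* both -0.03. *Dnajb9*, a J protein that holds IRE1 inactive, had the highest change of the 35 genes, 0.10 (SE 0.082), and 0.16 without control replicate 1.

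The lectin chaperones, which fold glycoproteins, did not differ detectably, with *Calr* at -0.07 and *Canx* at 0.01 (95% interval -0.10 to 0.13). Of the protein disulfide isomerases, *Pdia4* read 8.97, 9.01, 8.83, 9.04 and 8.73 in Dp3Yah and 9.54, 8.79, 8.90, 8.98 and 8.91 in control. One mouse, control replicate 1, stood 0.56 above the next control and apart by Dixon's criterion, as it did in 0.988% of all genes, and the change of -0.11 became 0.02 without it. *Pdia3*, which acts with the lectin chaperones, read 10.09, 10.39, 10.17, 10.16 and 10.15 in Dp3Yah and 10.40, 10.18, 10.19, 10.03 and 10 in control. Here Dp3Yah replicate 2 stood apart upwards from its own group, and the change was 0.03. *Pdia6* had a change of -0.12, and *Herpud1*, which organises the ER-associated degradation complex, had -0.12.

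The 3 sensors had changes between -0.12 and -0.06. *Atf6* read 8.90, 8.89, 8.78, 8.88 and 8.76 in Dp3Yah and 9.07, 8.88, 8.99, 8.94 and 8.93 in control. Dp3Yah replicates 3 and 5 lay below every control, and the spread within each group was small (SD 0.069 and 0.073). The change was -0.12 (SE 0.048, limma adjusted p = 0.922), and -0.09 without control replicate 1. *Ern1* read 6.62, 6.33, 6.77, 6.55 and 6.59 in Dp3Yah and 6.57, 6.74, 6.59, 6.55 and 6.72 in control, with a change of -0.06. The Dp3Yah mice held both the lowest *Ern1* value (replicate 2, 6.33) and the highest (replicate 3, 6.77). Apart from replicate 2, the Dp3Yah mice read 6.55 to 6.77, and the controls read 6.55 to 6.74. *Eif2ak3* read 6.97, 6.77, 7.01, 6.98 and 6.78 in Dp3Yah and 7.09, 7.03, 6.92, 7.05 and 6.91 in control, with a change of -0.10 (SE 0.060). Only Dp3Yah replicates 2 and 5 lay below every control.

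The transcription factors differed in which mouse set their difference. *Xbp1* read 9.48, 9.45, 9.42, 9.50 and 9.27 in Dp3Yah and 9.99, 9.46, 9.32, 9.61 and 9.30 in control. Its change of -0.11 became 0.00 without control replicate 1, which lay 0.39 above the next control. The probe set does not tell spliced from unspliced *Xbp1*, so IRE1 activity was not read here. *Atf4* read 7.28, 7.07, 7.55, 7.58 and 7.40 in Dp3Yah and 7.48, 7.58, 7.56, 7.70 and 7.47 in control. Dp3Yah replicates 1, 2 and 5 lay below every control. The change was -0.18 (SE 0.087), and -0.20 without control replicate 1, which was not extreme. Dp3Yah replicate 2 was the lowest mouse at 7.07. It was also the lowest in 13 of 22 further integrated stress response genes, against 23.8% of all genes. Its array had the lowest limma array weight of the 10 mice, 0.478. *Ddit3* (CHOP) read 7.59, 7.47, 7.60, 7.68 and 7.66 in Dp3Yah and 7.66, 7.74, 7.69, 7.81 and 7.55 in control, with a change of -0.09. Their targets *Trib3*, a pseudokinase, and *Chac1*, a glutathione-degrading enzyme, had changes of -0.05 and 0.02, and *Trib3* was the only measured member whose mean lay below the median of all genes.

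**Figure D3:**
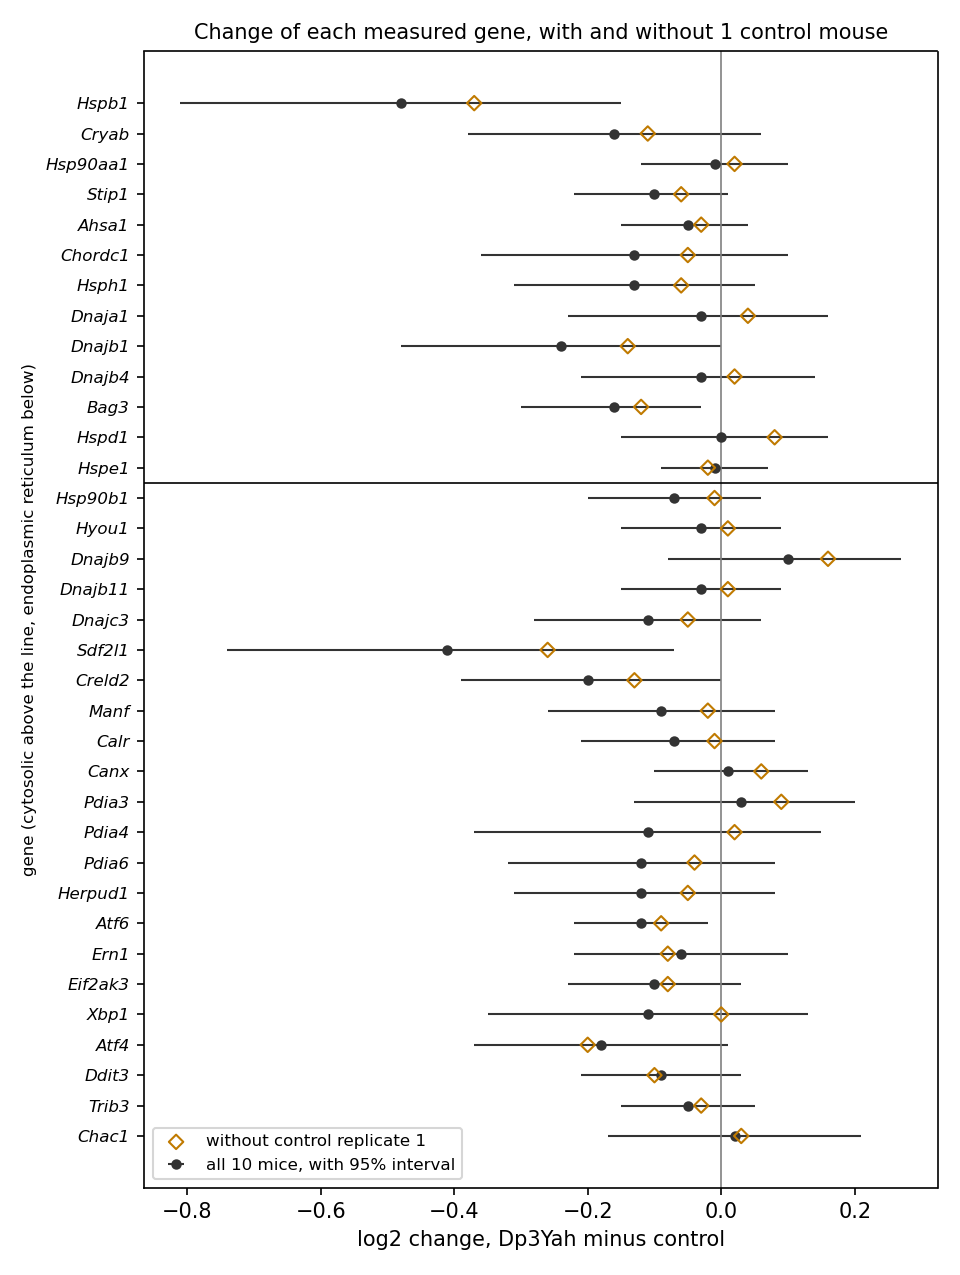
Log2 change (Dp3Yah minus control) of each of the 35 measured genes with all 10 mice (filled points, bars are limma's 95% intervals) and without control replicate 1 (open diamonds). The median over cytosolic genes moves from -0.10 to -0.05 and that over ER genes from -0.09 to -0.03, while *Atf4* and *Ddit3* barely move.

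In the wider pathways the medians lay near 0. Of 34 measured further cytosolic chaperone and cochaperone genes, 23 had positive and 11 negative changes, against 53.2% negative over all genes. Their median was 0.01. At an unadjusted limma p under 0.05, 1 was lower, the J protein *Dnajb5* (-0.26), against 2.59% of all genes. Of 39 further ER stress genes the median was 0.02. In that list *Syvn1*, a ubiquitin ligase of ER-associated degradation, had -0.14 and *Creld1* had -0.15. The ER oxidase *Ero1a* had 0.10, and the transcription regulators *Creb3* and *Crebrf* both had 0.14. Of 22 further genes of the integrated stress response the median was -0.03, with *Vegfa*, the angiogenic growth factor, at -0.22. No gene of these lists passed the adjusted threshold. The list means of control replicate 1 were the highest of all mice for the further cytosolic chaperones (8.62) and for the further ER stress genes (7.99), by smaller margins than for the 35 genes.

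Of the Hsp70 family, *Hspa5* (the ER Hsp70, BiP) read 10.54, 10.23, 10.14, 10.47 and 10.03 in Dp3Yah and 11.04, 10.21, 10.40, 10.62 and 10.37 in control, a change of -0.25 with control replicate 1 again the highest. The inducible *Hspa1a* had -0.24, and without control replicate 1 these changes were -0.12 for *Hspa5* and -0.13 for *Hspa1a*. Both genes had a limma adjusted p of 0.922 over all 10 mice. Of the 12 measured Hsp70 genes, 6 had negative and 6 positive changes, against 53.2% negative over all genes. Their median was -0.00. The constitutive *Hspa8* had -0.01, whereas *Hspa13*, inside the interval, was 0.60 higher (limma adjusted p = 0.0122).

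Cold-inducible RNA-binding protein genes had changes of the opposite sign. *Rbm3* and *Cirbp* encode RNA-binding proteins that increase when cells or animals cool. *Rbm3* read 10.50, 10.43, 10.85, 10.43 and 11.06 in Dp3Yah and 10.09, 10.60, 10.30, 10.35 and 10.37 in control, a change of 0.31 (SE 0.124, limma adjusted p = 0.922). It had 3 probe sets, and all *Rbm3* values here are those of the set with the highest mean. The other sets were not compared with it. *Cirbp* read 8.24, 8.02, 8.75, 8.39 and 9.07 in Dp3Yah and 8.0, 8.58, 8.01, 8.18 and 8.19 in control, a change of 0.30 (SE 0.173). Control replicate 1, the highest mouse in most chaperone genes, was the lowest in both, and Dp3Yah replicates 3 and 5, the lowest in *Hspb1* and *Sdf2l1*, were the highest in both. Both changes were 0.25 without control replicate 1.

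The 6 pairings of *Rbm3* or *Cirbp* with the marker genes were computed because the same mice had been seen at opposite ends, so their correlations over the 10 mice are descriptions, given with no test. For *Rbm3* and *Hspb1* Pearson's r was -0.91 and Spearman's rho -0.85. Without Dp3Yah replicates 3 and 5, the mice farthest from the median of *Rbm3*, r was -0.85, and within groups, as deviations from each group's mean, it was -0.86. For *Rbm3* and *Sdf2l1* r was -0.85 and rho -0.88, with r = -0.84 without those 2 mice and -0.77 within groups. For *Rbm3* and *Creld2* r was -0.79 and rho -0.73, with r = -0.74 and -0.69. *Cirbp* gave r = -0.81 with *Hspb1* (rho = -0.77), -0.73 with *Sdf2l1* (rho = -0.87) and -0.60 with *Creld2* (rho = -0.56). These values of r weakened to -0.55, -0.54 and -0.26 without Dp3Yah replicates 3 and 5, so they depended in part on those mice. Within groups they were -0.77, -0.65 and -0.47. Without control replicate 1, r was -0.82, -0.77 and -0.53 for *Cirbp*. For *Rbm3* it was then -0.89, -0.82 and -0.70, in the same order of marker genes. Body temperature is not given for the mice in the sources used here, and its part in these values was not tested.

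**Figure D4:**
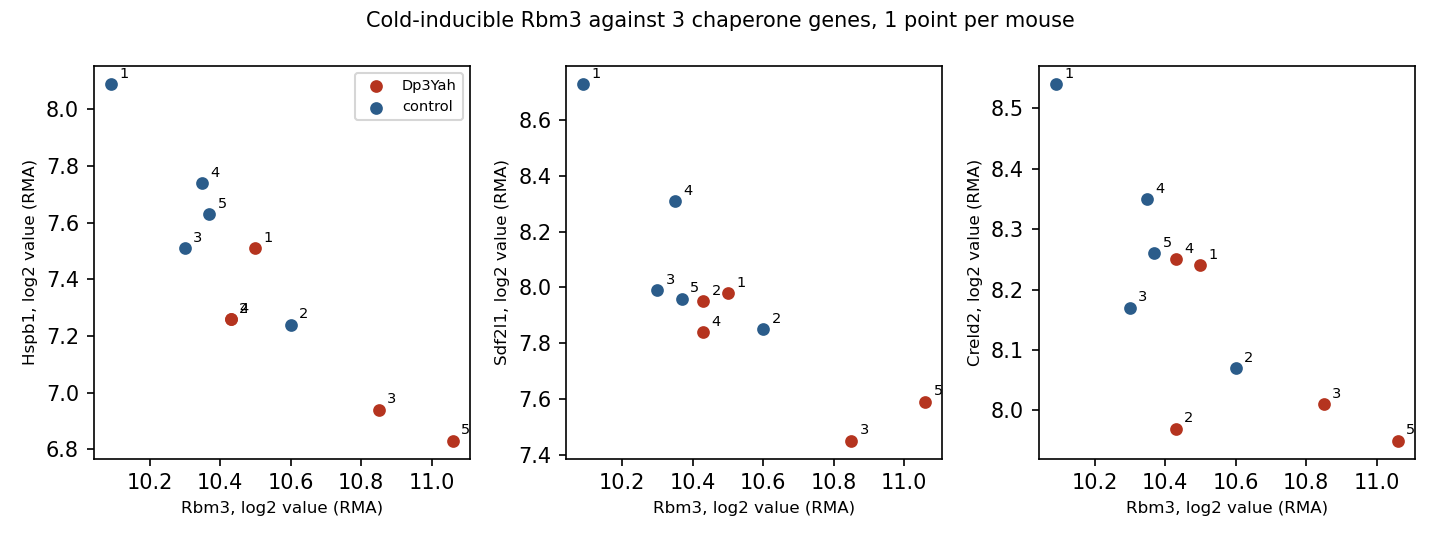
Log2 value of *Rbm3* (x axis) against that of *Hspb1*, *Sdf2l1* and *Creld2* (y axes), 1 point per mouse with its replicate number; in the *Hspb1* panel Dp3Yah replicates 2 and 4 lie on the same point. Control replicate 1 lies at the low end of *Rbm3* and the high end of each chaperone gene, and Pearson's r is -0.91, -0.85 and -0.79.

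Markers of other cell types and states were set beside these differences. The 10 measured of 12 choroid plexus markers had list means per mouse of 6.07 to 7.81 in Dp3Yah and 6.00 to 7.93 in control, and were high in Dp3Yah replicates 1, 2 and 5 and in control replicates 1 and 5. The choroid plexus mean was 7.82 in control replicate 1 and 7.93 in control replicate 5, and the mean over the 35 chaperone and stress genes was 9.18 and 8.89 in these mice. All 11 measured microglia markers had positive changes (0 negative, against 53.2% of all genes), with a median of 0.09. Their list means were 7.87 to 8.07 in Dp3Yah and 7.77 to 7.88 in control. *Ctss* (0.19), *Itgam* (0.15), *Cx3cr1* (0.15) and *Siglech* (0.13) were higher at an unadjusted limma p under 0.05, 4 of 11 against 2.49% of all genes. Of 12 dentate granule cell markers 10 were negative, against 53.2% of all genes (median -0.17, list means of 7.66 to 7.96 and 7.82 to 8.06). *Fam163b* (-0.26), *C1ql2* (-0.24), *Plk5* (-0.24) and *Stxbp6* (-0.22) were lower at an unadjusted limma p under 0.05, 4 of 12 against 2.59% of all genes. No gene of the choroid plexus, microglia and dentate lists passed the adjusted threshold. The part of these cell types in the chaperone values was not tested.

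In the remaining lists, the median change was -0.04 for endothelial, 0.01 for mural, -0.01 for meningeal, 0.05 for astrocyte, 0.02 for oligodendrocyte and 0.03 for CA pyramidal markers; *Tagln*, of smooth muscle, had -0.16 and *Dcn*, of fibroblasts, 0.35. Glucocorticoid-responsive genes had a median of -0.08. The 14 immediate early genes had a median of -0.18, with 0 at an unadjusted limma p under 0.05 (over all genes 2.59% lower, 2.49% higher). Their list means ran from 7.17 to 8.26 in Dp3Yah and from 7.63 to 7.96 in control. Dp3Yah replicates 1 and 5 were the lowest mice in that list, and control replicate 1 lay within the range of the other controls.

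**Figure D5:**
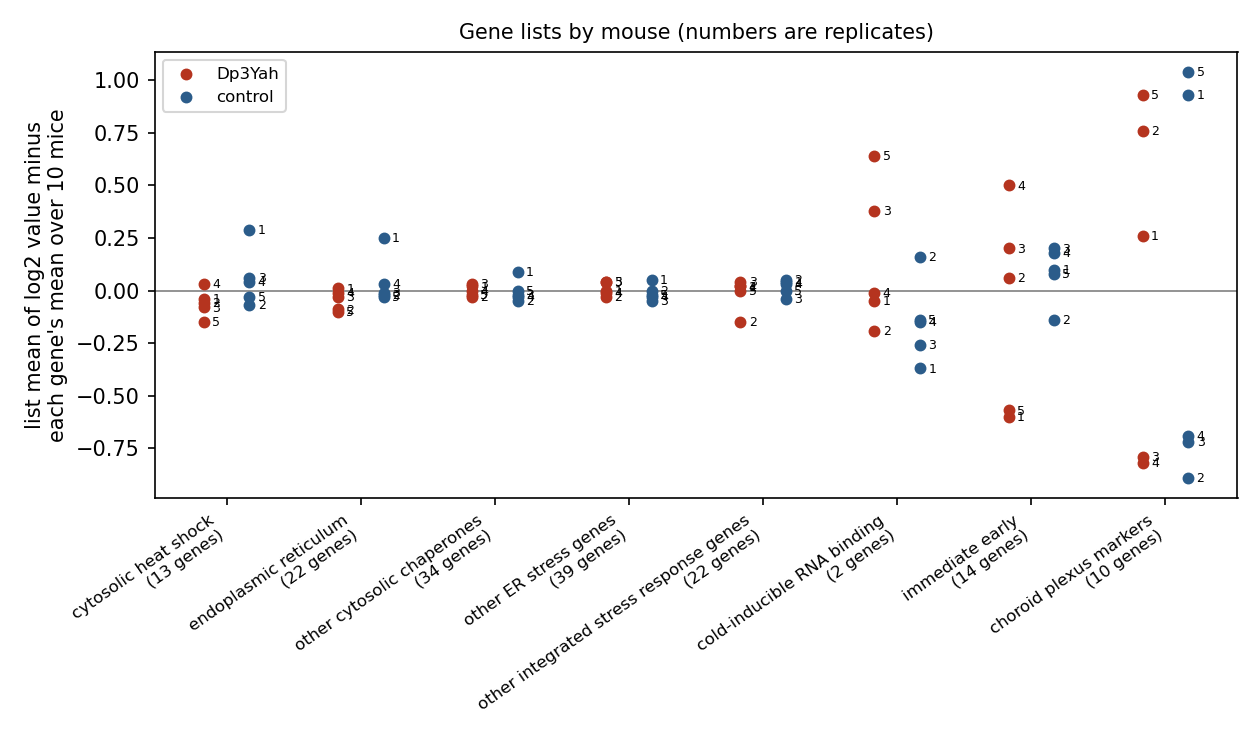
Mean over each gene list of the log2 value minus the gene's mean over all 10 mice, 1 point per mouse with its replicate number. Control replicate 1 stands above all other mice in the cytosolic and ER lists and below them in the pair of cold-inducible genes, while in the choroid plexus list it lies among the high mice, with control replicate 5 and Dp3Yah replicates 2 and 5.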

How the data were processed

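Hippocampal RNA of 10 mice (5 Dp3Yah, 5 control) was measured on Affymetrix Mouse Gene ST microarrays. The authors deposited log2 values for 35556 probe sets, and per the labels these come from RMA with limma and the mm10 build; their versions are not given in the sources at hand. RMA normalises all arrays to a common distribution, so changes are relative.

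The platform annotation paired 21789 probe sets with 1 gene, and 1621 with several genes and 12146 unnamed ones were left out. Each of the 19939 genes took its probe set with the highest mean (998 had a choice); 19856 matched RefSeq of GRCm38.p6 by identifier. Groups were compared with limma 3.58.1 in R 4.3.3 (moderated statistics from lmFit and eBayes without covariates, two-sided, p adjusted over all genes by Benjamini-Hochberg). FCROS was rewritten (trim 0.25, f under 0.025 or over 0.975). Correlations used scipy 1.17.1. The number of arrays limits precision.

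Members and lists were chosen with earlier results of these data known. Every member is named; values per mouse are given for those at an unadjusted p under 0.05, for sensors and transcription factors, and where 1 mouse stood apart by Dixon's criterion. From each context list, up to 4 genes at an unadjusted p under 0.05 are named, and *Cirbp*, *Creld1*, *Hspa1a*, *Hspa5* and *Hspa8* were added after their values were seen. The fit was tested on simulated data. Alternatives were a replicate block, other probe set summaries, filters, normalisations and variance models, and leaving out each mouse.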

Additional observations from a re-analysis of the deposited data

Results flagged for a closer look

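In the 70 groups of 5 mice that the 35 genes gave, 1 mouse stood apart by Dixon's criterion in 2, and chance alone marks about 1 group in 20. *Pdia4* was marked because control replicate 1, at 9.54, lay far above the other controls (8.79 to 8.98), with a ratio of gap to range of 0.749. *Pdia3* was marked because Dp3Yah replicate 2, at 10.39, lay above the other Dp3Yah mice (10.09 to 10.17), with a ratio of 0.735. The critical ratio for 5 mice is 0.71. Control replicate 1 stood apart upwards in 0.988% of all genes.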

How the results depend on the processing

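No member passed an adjusted p of 0.05 under any limma alternative; the lowest was 0.614. FCROS needs no adjusted p, and its thresholds fix about the share of genes called. It put 4 cytosolic and 3 ER members and 915 genes in all past them, a number not comparable with that of limma. Over all genes limma called 3, 6 with a trended and robust variance, 5 with array weights, and 1 to 4 with 1 mouse left out (1 without Dp3Yah replicate 4 or without control replicate 3, 4 or 5). The numbers of members lower at an unadjusted p under 0.05 depended on single mice. They ranged from 1 to 4 for cytosolic genes (main 2), with 1 without Dp3Yah replicate 3 and 4 without control replicate 2 or 5. They ranged from 0 to 4 for ER genes (main 3), with 0 without Dp3Yah replicate 5 and 1 without Dp3Yah replicate 3 or control replicate 1 or 4. The share of all genes lower at that p was computed only for the main fit (2.59%) and without control replicate 1 (2.32%). The remaining counts have no such share to be set against. The medians ranged from -0.13 to -0.05 for cytosolic and from -0.11 to -0.03 for ER genes when 1 mouse was left out. Of 664 member values, 18 turned sign, in 10 members, among them *Pdia4* (main -0.11). With array weights *Hsp90aa1* and *Dnajb4* were both 0.01. With 1 mouse left out, changes ran from -0.04 to 0.02 for *Hsp90aa1*, from -0.09 to 0.04 for *Dnaja1*, from -0.08 to 0.03 for *Dnajb4*, from -0.02 to 0.01 for *Hspe1*, from -0.06 to 0.01 for *Hyou1*, from -0.06 to 0.01 for *Dnajb11*, from -0.01 to 0.06 for *Canx*, from -0.02 to 0.09 for *Pdia3*, from -0.17 to 0.02 for *Pdia4* and from -0.04 to 0.08 for *Chac1*.

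Same-numbered mice had correlations of 0.044, -0.364, 0.065, 0.199 and 0.315 between their deviations, and 4 of 10 mice correlated best with their own number. These values do not settle whether the replicate numbers pair the mice, and the main fit took no pairing. With the replicate number as a block, limma called 3 genes and 0 members, 3 cytosolic and 4 ER members were lower at an unadjusted p under 0.05, and the medians were -0.10 and -0.09. The share of all genes lower at an unadjusted p under 0.05 was not computed for the block fit. With 5 mice per group, small changes were not detectable in genes that vary this much between mice.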
